A study of Rattus norvegicus with 61 samples.

Results

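The 150 transcripts described here are those whose mean level in rat liver moved most with 4,4'-methylene dianiline (MDA) while the mean level with acetaminophen (APAP) moved little. For each transcript, A was the log2 ratio of the mean of the APAP livers to the mean of the vehicle (Ctrl) livers and M the same ratio for the MDA livers, both on CPM (counts scaled to a library total of 1000000) plus 1 and both centred on their median over the 13482 transcripts averaging at least 1 CPM over the 15 livers. Transcripts with A between -0.5 and 0.5 and M of at least 0.5 (717 transcripts) or at most -0.5 (477 transcripts) were eligible, and the 75 with the highest and the 75 with the lowest M were taken from a table of 31196 transcripts. They are called the raised and the lowered members below. The members were thus chosen by their levels in these same livers. Every liver value below is therefore a description, and only the spleen, blood and sorted cells are independent of the choice.

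All samples came from male wild-type Sprague-Dawley rats, which the methods give as 6 weeks old. Rats fasted overnight received by gavage APAP at 3 g/kg, MDA at 300 mg/kg or the vehicle, 0.5% methylcellulose, and a piece of the largest lobe was taken after perfusion of the liver at 24 h (5 livers per group). The other 46 samples came from untreated rats: spleen cell suspensions and whole blood cells, both freed of erythrocytes by lysis (5 each), B, NK, CD4 T and CD8 T cells sorted from spleen, and neutrophils and monocytes sorted from blood (6 each). The labels do not tie each sample to a separate animal, so the p-values measure the spread between these samples, which may be partly technical.

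The liver consists mainly of hepatocytes, together with bile duct cells, the endothelial and stellate cells of the sinusoids and resident and passing leukocytes, and a piece of tissue holds the RNA of all of them. MDA is an aromatic amine known for injuring the cells that line the bile ducts and, with them, the parenchyma around the portal tract. APAP is turned by cytochrome P450 enzymes of hepatocytes into a reactive metabolite, and its injury is known to begin around the central vein. In bulk tissue, fewer cells of a type and less RNA per cell cannot be told apart. The table names transcripts by Ensembl transcript identifier alone and does not pair them with genes, so the members are given by identifier or by rank, and their functions are not described.

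Totals ranged from 10484912 to 14146402 estimated counts per liver and from 3429971 to 14146402 over all 61 samples. On log2(CPM + 1) over the kept transcripts, Pearson's r across transcripts was 0.941 to 0.972 between livers of the same group. "Alone" refers to the centred A of the rule, relative to the other transcripts, and does not hold for every member by test. With edgeR, 11 raised members were called higher in APAP than in Ctrl livers and 4 lower. Of all transcripts tested, 20.3% were called higher and 20.5% lower. Before centring, the median log2 ratio over all kept transcripts was 0.61 for APAP and 0.46 for MDA, and in uncentred CPM the APAP mean lay above the Ctrl mean for all 75 raised and all 75 lowered members. The CPM values depend on what a few very abundant transcripts take of each total. Whether transcript length is still contained in them is not known. The sums over members and the classes by CPM below are therefore shares of counts and need not reflect numbers of RNA molecules.

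M of the raised members ran from 1.34 to 4.58 with a median of 1.53 on the centred log2 scale, and M of the lowered members from -2.83 to -0.97 with a median of -1.24. The median A was 0.07 for the raised and -0.23 for the lowered members. The choice at the ends was narrow. The last raised member and the first transcript left out both had an M of 1.34, and both had -0.97 among the lowered. At the limit of A, the raised member nearest to it had 0.500 and the nearest transcript left out 0.511, and among the lowered these values were -0.499 and -0.506. A further 227 transcripts had an M as high as the raised members but lay outside the limits of A, 187 of them with an A of at least 0.5, and 582 had an M as low as the lowered members, 22 of them with an A of at least 0.5.

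**Figure D1:**
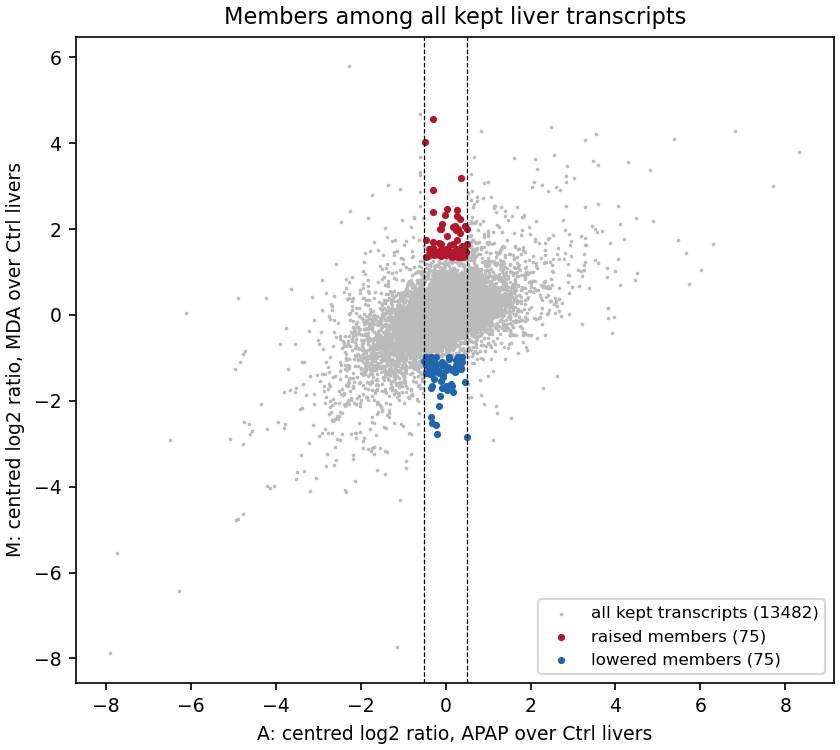
Centred log2 ratio of MDA over Ctrl livers (M, vertical axis) against that of APAP over Ctrl livers (A, horizontal axis) for 13482 kept transcripts (grey), the 75 raised members (red) and the 75 lowered members (blue); dashed lines mark A of -0.5 and 0.5. The raised members reach an M of 4.58 and the lowered members -2.83, and both lie between the dashed lines by construction.

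The raised member that stood highest was ENSRNOT00000054729. Its level in the 5 MDA livers was 53.5, 58.0, 52.5, 27.6 and 26.8 CPM. In the Ctrl livers it was 0.153, 0.264, 0.381, 0.368 and 0.648 CPM and in the APAP livers 0.349, 0.525, 0.477, 0.727 and 1.34 CPM. Every MDA liver was far above all 10 others, while the Ctrl and APAP livers overlapped. With edgeR the log2 ratio of MDA to Ctrl was 6.28 (SE 0.35), that of APAP to Ctrl 0.20 (SE 0.44) and that of MDA to APAP 6.08 (SE 0.33). The Ctrl livers held only 1.9 to 7.7 estimated counts and the APAP livers 4.2 to 15.2, so these ratios rest on few counts. Outside the liver this transcript was listed at 0 in 45 of 46 samples, and 1 CD4 T cell sample held 0.0502 CPM, under 1 estimated count.

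ENSRNOT00000026473 had the second highest M. The MDA livers held 58.9, 26.1, 8.26, 15.1 and 47.0 CPM. The Ctrl livers held 0.341, 0.198, 0.326, 1.01 and 0.267 CPM, and the APAP livers 0.786, 1.18, 0.0899, 0.325 and 0.416 CPM. The 5 MDA livers spread more widely among themselves than for the first transcript, but the lowest of them was still above the highest Ctrl and APAP liver. The edgeR log2 ratio was 5.70 (SE 0.66) for MDA over Ctrl, -0.26 (SE 0.82) for APAP over Ctrl and 5.97 (SE 0.65) for MDA over APAP. These ratios also rest on few counts, 2.1 to 11.5 in the Ctrl and 1.0 to 12.4 in the APAP livers for this transcript. In the 46 samples of spleen, blood and sorted cells its highest value was 0.0441 CPM, in 1 neutrophil sample. A level of 3 counts, which a count of 0 still allows, came to between 0.221 and 0.875 CPM in those samples. For counting error alone, a level below this was therefore not excluded for either raised transcript.

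Among the lowered members whose MDA livers lay below all others, ENSRNOT00000007879 had the lowest M. The Ctrl livers held 115, 205, 155, 82.5 and 141 CPM and the APAP livers 156, 54.3, 145, 194 and 364 CPM. The MDA livers held 27.1, 39.3, 33.9, 23.2 and 34.3 CPM. The MDA livers were close together and below every other liver, and the APAP livers reached both below and above the range of the Ctrl livers. The edgeR log2 ratio was -2.71 (SE 0.40) for MDA over Ctrl, -0.30 (SE 0.37) for APAP over Ctrl and -2.41 (SE 0.39) for MDA over APAP.

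ENSRNOT00000011432 was next among the lowered members. Its Ctrl livers held 16.0, 22.0, 22.1, 23.3 and 30.8 CPM and its APAP livers 39.6, 25.2, 33.8, 23.0 and 19.6 CPM. Its MDA livers held 3.8, 2.07, 2.62, 3.91 and 11.5 CPM. MDA replicate 5 lay well above the other MDA livers and still below the lowest Ctrl liver. The edgeR log2 ratio was -2.74 (SE 0.39) for MDA over Ctrl, -0.38 (SE 0.36) for APAP over Ctrl and -2.36 (SE 0.39) for MDA over APAP.

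**Figure D2:**
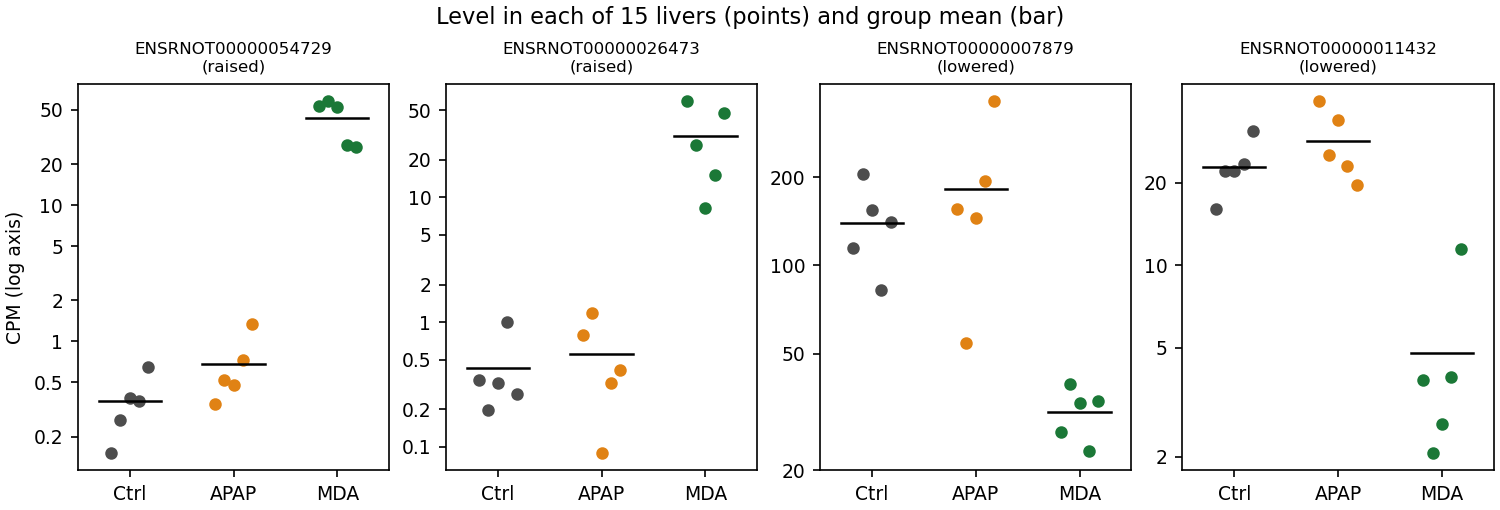
CPM on a log axis in each of 15 livers (points) with the group mean (bar) for the 2 named raised and the 2 named lowered transcripts; each panel has its own axis. The MDA livers of the first transcript sit between 26.8 and 58.0 CPM against at most 1.34 CPM elsewhere, and those of the last between 2.07 and 11.5 CPM against at least 16.0 CPM.

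Further members, described by rank after their values were seen, showed how unlike the members were. The raised member of rank 3 was listed at 0 in 2 Ctrl and 2 APAP livers, with highest values of 1.42 and 4.75 CPM, and held 18.9, 28.7, 17.6, 20.4 and 15.4 CPM in the MDA livers. Its mean was 16.4 to 28.2 CPM in spleen, whole blood cells and each of the 6 sorted types, so unlike the named raised pair it was present throughout the immune samples. The raised member of rank 4 held 17.4 to 39.7 CPM in the Ctrl and 28.2 to 38.6 CPM in the APAP livers. Its MDA livers held 246, 380, 304, 277 and 239 CPM and lay above all others. Its means in spleen, blood and sorted cells were 2.68 to 6.22 CPM. The raised member of rank 5 held 36.1 to 176 CPM in the MDA livers, and its lowest MDA liver was below the highest APAP liver, at 40.4 CPM. Its means were 107 to 638 CPM in the immune samples, highest in monocytes.

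The lowest M of all belonged to a member that did not separate the groups. The lowered member of rank 1 held 22.2, 75.1, 153, 34.6 and 33.8 CPM in the Ctrl livers, was listed at 0 in 4 MDA livers and held 57.3 CPM in the fifth. One APAP liver was also listed at 0 while another held 428 CPM. The lowered member of rank 2 was above 0 in only 3 of 15 livers, at 12.3 and 7.46 CPM in Ctrl and 27.7 CPM in APAP. By contrast, the lowered member of rank 5 held 7.08, 8.09, 7.73, 9.77 and 8.29 CPM in the Ctrl livers and 6.00 to 14.9 CPM in the APAP livers. Its MDA livers held 1.55, 2.59, 0.851, 0.675 and 1.5 CPM and did not overlap with the others, and its mean stayed at or below 0.624 CPM in spleen, whole blood cells and all sorted types.

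The livers were then compared one by one over all members. All 5 MDA livers lay above all 10 others for 57 of 75 raised members, against 4.98% of the kept transcripts, and above the 5 Ctrl livers for 69 of 75, against 28.8%. All 5 MDA livers lay below all 10 others for 23 of 75 lowered members, against 0.860%, and below the 5 Ctrl livers for 24 of 75, against 2.81%. The APAP livers lay wholly above the Ctrl livers for 27 of 75 raised and 6 of 75 lowered members, against 40.6%, and wholly below them for 0 of either side, against 4.45%. Since these livers chose the members, nothing is read from these shares.

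Many lowered members were at 0 in some livers. Only 47 of 75 lowered members were above 0 in all 15 livers, compared with 62 of 75 raised members and 90.9% of the kept transcripts. Of the lowered members, 19 were listed at 0 in at least 3 MDA livers and 5 in all of them, and 18 were listed at 0 in at least 1 Ctrl liver. For 11 lowered members 1 Ctrl liver held most of the Ctrl sum. All 23 lowered members that separated the MDA livers from the other 10 were above 0 throughout. In a quantification that divides reads among transcripts of one gene, a 0 can be a failed estimate. For 5 raised members every Ctrl liver was at or under 3 counts. Their MDA means were 2.73 to 6.40 CPM, at least 10.7-fold to at least 25.1-fold higher than a level of 3 counts per library, 0.255 CPM at the mean Ctrl total. Only 3 of these 5 were above 0 in every MDA liver. The raised member of rank 56, with the lowest of these means, was listed at 0 in 3 MDA livers and held 7.48 and 6.16 CPM in replicates 2 and 5, and without replicate 2 its mean fell to 1.54 CPM. The raised member of rank 8 was listed at 0 in 2 MDA livers, and without replicate 3 its mean fell from 5.95 to 3.49 CPM. All 5 also had a higher mean in APAP than in Ctrl livers, at 0.268 to 1.01 CPM. Their edgeR log2 ratios of APAP to Ctrl were 2.13 to 6.30, with an adjusted p under 0.05 at ranks 7 and 11 only. With 1 CPM added to both means, their A stayed within the limits of the rule.

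**Figure D3:**
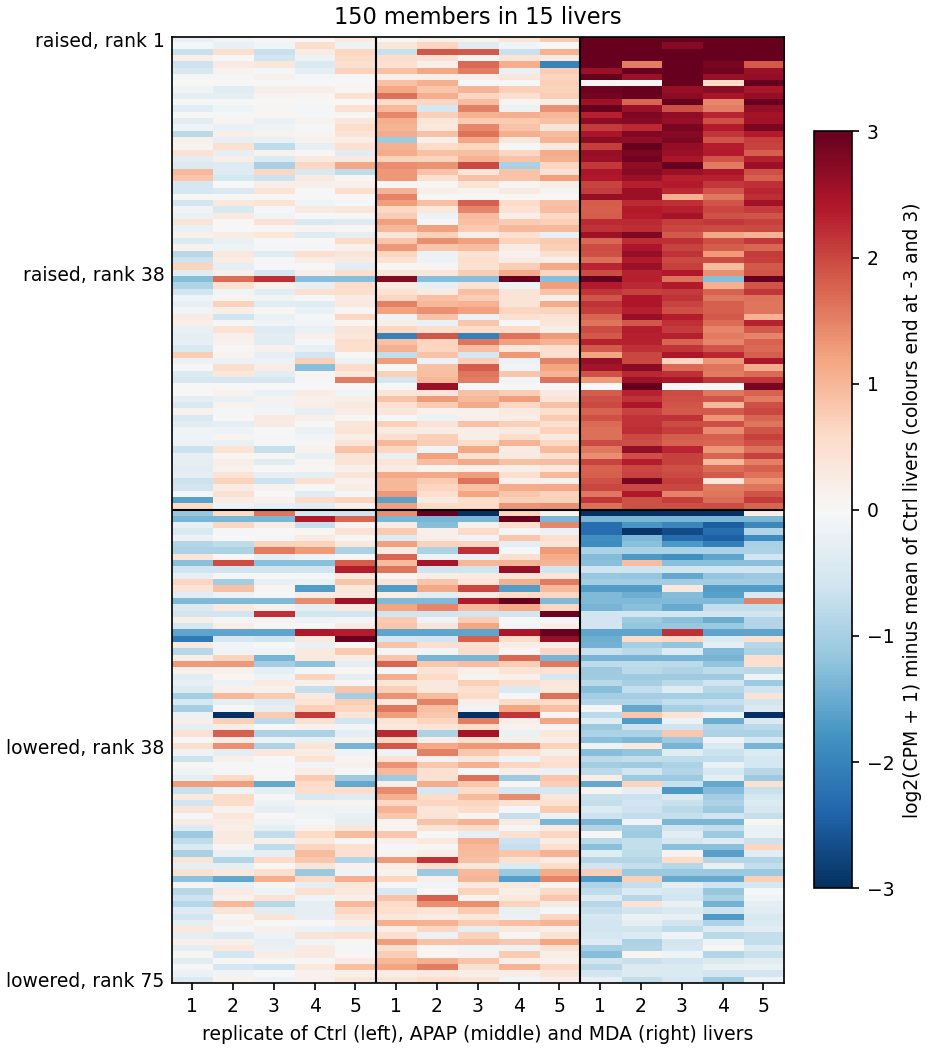
Log2(CPM + 1) minus the mean of the Ctrl livers for the 75 raised (top) and 75 lowered (bottom) members, in rows by rank, and 15 livers in columns; red is above and blue below the Ctrl mean, and colours end at -3 and 3. The MDA columns of the raised block are red nearly throughout, while isolated dark cells in the lowered block are members listed at 0 in some livers, such as the lowered member of rank 1 with 4 MDA livers at 0.

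Summed over the raised members, the Ctrl livers held 2120, 1456, 1518, 1569 and 1538 CPM, the APAP livers 1981 to 3149 CPM and the MDA livers 7693, 9379, 7493, 4690 and 6311 CPM. The group means were 1640 ± 272, 2449 ± 485 and 7113 ± 1741 CPM (SD, n = 5). A single transcript, the raised member of rank 37, made up much of this sum, with means of 959 ± 302, 1364 ± 456 and 3805 ± 1412 CPM. Without it the sums were 681 ± 70.0 CPM in Ctrl, 1085 ± 43.8 CPM in APAP and 3308 ± 411 CPM in MDA livers. In the MDA livers the raised members thus took up 0.711% of all counts, compared with 0.164% in Ctrl livers.

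Summed over the lowered members, the Ctrl livers held 6644, 6175, 6935, 6129 and 6339 CPM and the MDA livers 3707, 3746, 3607, 4212 and 4338 CPM, while the APAP livers held 7502 to 9093 CPM. The means were 6444 ± 341, 3922 ± 329 and 8161 ± 577 CPM in that order. The lowered member of rank 67 held 3033 ± 501 CPM in Ctrl, 3486 ± 770 CPM in APAP and 2090 ± 259 CPM in MDA livers. Without it the lowered sum was 3412 ± 334 CPM in Ctrl, 4674 ± 232 CPM in APAP and 1832 ± 96.0 CPM in MDA livers, so the APAP livers were the highest group in this sum. The median lowered member had an uncentred log2 ratio of -0.78 for MDA over Ctrl and 0.38 for APAP over Ctrl.

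The 5 MDA livers did not contribute alike. MDA replicate 2 was the highest of the 5 for 47 of 75 raised members in CPM and for 36 after trimmed-mean (TMM) scaling, while it was the highest for 30.9% and 18.2% of all kept transcripts. MDA replicate 4 was the lowest for 33 raised members, close to its share of 42.1% among all kept transcripts. For the lowered members, MDA replicate 5 was the highest for 25 of 75 in CPM and 27 with TMM scaling, compared with 8.63% and 15.2% of all kept transcripts. The members were also compared in how they varied within groups. The median Pearson correlation of the deviations from the group means over 15 livers was 0.03 between raised and 0.04 between lowered members, and -0.002 between transcripts taken at every 20th place in the table; the transcripts share their libraries and scaling. Over the 5 MDA livers alone the medians were 0.13 for raised and 0.15 for lowered members and -0.005 for the same comparison transcripts.

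In edgeR fits over all kept transcripts (adjusted p under 0.05), 70 of 75 raised members were called higher in MDA than in Ctrl livers, against 10.6% of the transcripts tested, and 48 of 75 lowered members were called lower, against 11.3%. Between MDA and APAP livers 65 raised members were called higher, against 17.0%, and 47 lowered members lower, against 16.2%. Both comparisons used the contrasts that chose the members, and they share the MDA livers. Of the raised members 64 were called in both, against 4.59% of all transcripts tested, and 49 of these were not called between APAP and Ctrl, against 2.97%. Of the lowered members 45 were called in both, against 2.77%, and 40 of these not between APAP and Ctrl, against 1.79%. A further 25 lowered members were called lower in neither, as were 75.2% of all transcripts.

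The call between APAP and Ctrl livers depended on the scaling. With TMM scaling 11 raised members were called higher, against 20.3% of all transcripts, and 4 lower, against 20.5%. Scaled to the totals alone, 40 were called higher, against 55.7%, and 0 lower, against 7.17%. Of the lowered members 1 was called higher and 4 lower with TMM scaling, and 14 higher and 0 lower without it. The medians of all transcripts moved with the scaling from 0.05 to 0.75 for APAP over Ctrl and from 0.02 to 0.56 for MDA over Ctrl (log2). For MDA over Ctrl, 74 raised members were called higher (44.1% of all) and 40 lowered members lower (4.11% of all) without TMM. The direction of the members relative to Ctrl under APAP is therefore not fixed by these data. Under MDA it was the same with either scaling for every called member. Because the rule chose members by M and held A near 0, nothing is read from this difference.

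The spleen, blood and sorted cells were not used in the choice of members. In these samples a larger share of the members than of all kept transcripts stayed below 1 CPM. None of the 6 sorted types reached a mean of 1 CPM for 29 of 75 raised members (38.7%) and 23 of 75 lowered members (30.7%), compared with 13.1% of the kept transcripts. All 6 types reached 1 CPM for 35 raised and 35 lowered members (46.7% each), compared with 78.0%. The shares varied with the level in the liver. Among transcripts with a Ctrl mean under 1 CPM, 12 of 18 raised members were below 1 CPM in every sorted type, compared with 20.1% of all such transcripts. With a Ctrl mean of 1 to 10 CPM these were 14 of 37 raised and 18 of 50 lowered members, compared with 11.4%, and with at least 10 CPM 3 of 20 and 5 of 25, compared with 13.9%. The members with a Ctrl mean under 1 CPM reached the minimum mean of 1 CPM over all livers through the treated livers, with MDA the highest group. The transcripts they are compared with could reach it through either treatment, so that class does not compare like with like. The shares are counts over transcripts that may share genes, and no test was made of them.

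**Figure D4:**
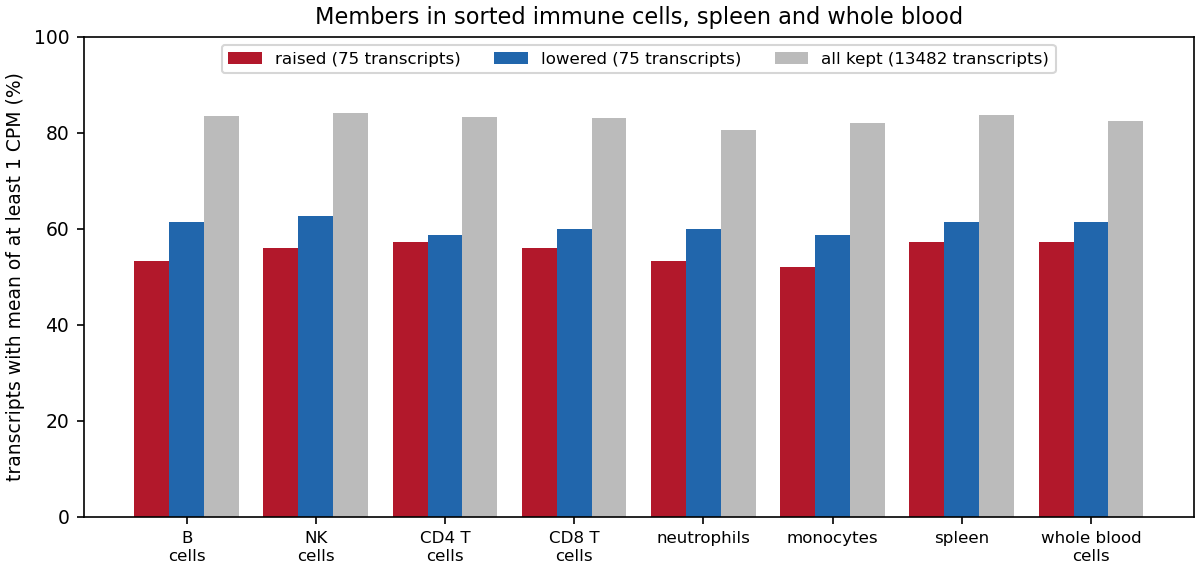
Percentage of transcripts averaging 1 CPM or more in each sorted cell type, in spleen and in whole blood cells, for the 75 raised members, the 75 lowered members and all 13482 kept transcripts; bars start at 0. The raised members lie between 52.0% (monocytes) and 57.3%, the lowered members between 58.7% and 62.7% (NK cells), and all kept transcripts between 80.6% (neutrophils) and 84.2%.

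Of the 46 raised members that reached 1 CPM in a sorted type, 18 were highest in monocytes (39.1%, all kept transcripts 26.8%), 8 in neutrophils (17.4%, all 14.1%) and 6 in B cells (13.0%, all 7.76%). A further 6 were highest in NK cells (13.0%, all 19.8%), 5 in CD4 T (10.9%, all 18.2%) and 3 in CD8 T cells (6.52%, all 13.3%). Of the 52 such lowered members, 15 were highest in monocytes (28.8%), 12 in neutrophils (23.1%), 10 in NK cells (19.2%), 6 in CD4 T (11.5%), 5 in CD8 T (9.62%) and 4 in B cells (7.69%). The share highest in neutrophils lay above that of all kept transcripts, and the shares highest in monocytes, NK and B cells lay close to it. These are cells known for different tasks: neutrophils and monocytes are the phagocytes that enter injured tissue from the blood, and B, T and NK cells are lymphocytes.

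Both named lowered transcripts were higher in the myeloid cells of blood than in splenic lymphocytes. ENSRNOT00000007879 had 1376 CPM at the lowest, 1591 at the median and 2153 at the highest in neutrophils, and 524, 684 and 871 CPM in monocytes. In B cells these values were 11, 45.1 and 128 CPM, in NK cells 14.7, 37.6 and 77.7 CPM, in CD4 T cells 6.72, 18.8 and 57.8 CPM and, last, CD8 T cells had 9.19, 17.7 and 54.6 CPM. Neutrophils and monocytes did not overlap with each other or with any lymphocyte, and the 4 lymphocyte types overlapped throughout. Replicate 5 was the highest sample of the NK, CD4 T and CD8 T cells. Relative to the mean of the 4 splenic lymphocyte types, blood neutrophils and monocytes were higher by 5.19 (log2, SE 0.29, adjusted p = 4.1e-17 in edgeR), and monocytes were lower than neutrophils by 1.71 (log2, SE 0.48, adjusted p = 0.0039). The spleen samples held 61.1, 63.4, 71.6, 55.9 and 40.8 CPM and the whole blood samples 346, 423, 657, 503 and 480 CPM. The log2 ratio of spleen to blood was -3.19 (SE 0.17, adjusted p = 2.5e-06 in edgeR), without overlap.

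ENSRNOT00000011432 had its highest level in neutrophils, 170 CPM at the lowest, 273 at the median and 343 at the highest. Monocytes had 16.9, 29.3 and 42.1 CPM and did not overlap with neutrophils. The 4 lymphocyte types together ran from 0.947 to 6.81 CPM, below every monocyte sample. The log2 ratio of blood myeloid cells to splenic lymphocytes was 4.66 (SE 0.16, adjusted p = 8.9e-23 in edgeR) and that of monocytes to neutrophils -3.61 (SE 0.28, adjusted p = 1.3e-12). The whole blood samples held 44.9, 59.2, 87.6, 67.4 and 62.1 CPM and the spleen samples 11.2, 19.8, 7.87, 9.57 and 6.92 CPM, with a log2 ratio of spleen to blood of -2.70 (SE 0.25, adjusted p = 1.9e-05 in edgeR). For both transcripts the Ctrl livers lay below whole blood and neutrophils in CPM, and the MDA livers below the Ctrl livers. The study also counted liver leukocytes by flow cytometry. Those counts were not used here, and the part of neutrophil number in these values was not tested.

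**Figure D5:**
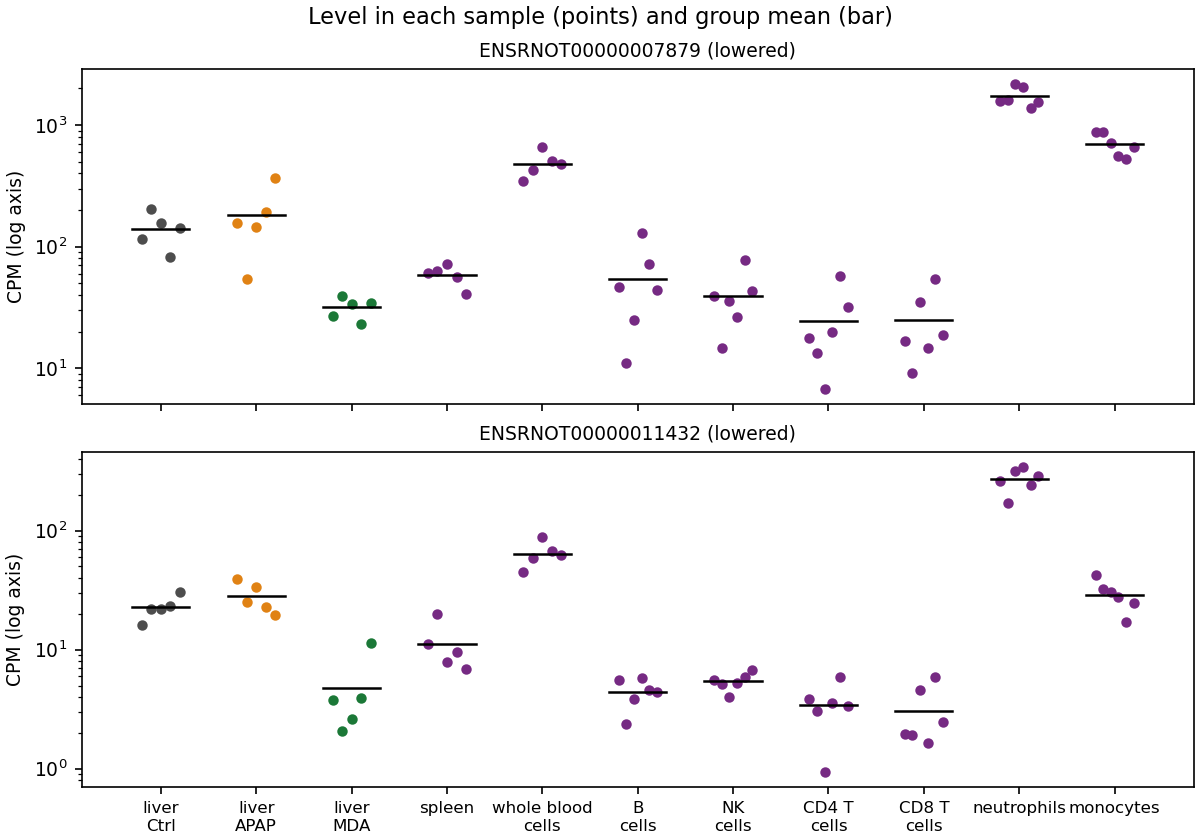
CPM on a log axis in each sample (points) with the group mean (bar) for the named lowered transcripts in livers, spleen, whole blood cells and 6 sorted cell types. Neutrophils are the highest group for both, with means of 1717 CPM (top) and 270 CPM (bottom), and the MDA livers hold means of 31.6 and 4.77 CPM, below the Ctrl and APAP livers.

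Over the members that could be tested in the sorted cells, 23 of 44 raised members were called higher in blood myeloid cells than in splenic lymphocytes, against 34.9% of the transcripts tested, and 13 lower, against 44.2%. Of the lowered members 18 of 48 were called higher and 14 lower. The median log2 ratio was 0.52 for the raised and 0.27 for the lowered members, and -0.12 for all transcripts tested. Organ and cell class cannot be told apart in this contrast, since the myeloid cells came from blood and the lymphocytes from spleen. The other 31 raised and 27 lowered members were below the 1 CPM filter, so these counts leave out the members absent from immune cells.

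Wide differences were also counted. The limit was an estimated ratio over 4-fold, chosen after the values were seen, in members called different. The test was of any difference and not of one over 4-fold. By this limit 12 of 48 lowered members (25.0%) and 6 of 44 raised members (13.6%) were higher in blood myeloid cells, against 7.23%. As far lower were 4 lowered and 1 raised, against 4.76%. The 12 lowered members had log2 ratios from 2.15 to 5.22. Neutrophils were the highest sorted type for 8 of them and monocytes for 4, and 11 of the 12 were called lower in spleen than in whole blood, against 23.9% of the transcripts tested. Since the 12 were picked as higher in blood cells than in spleen cells, nothing is read from that count. In the livers, which chose the members, the MDA samples lay below all 10 others for 7 of the 12, against 0.860%. One of the 12 was the lowered member of rank 67, which had 53.1 CPM in neutrophils and at most 0.51 CPM in any lymphocyte type, far below its liver level. The sum over the other 11 was 507, 590, 588, 503 and 880 CPM in the Ctrl livers, 952, 651, 942, 787 and 1090 CPM in the APAP livers and 219, 287, 311, 313 and 345 CPM in the MDA livers. These livers separated MDA from both other groups, as the choice of lowered members led them to. The 6 raised members summed to 34.6 ± 6.57 CPM in Ctrl, 55.7 ± 6.19 CPM in APAP and 161 ± 23.9 CPM in MDA livers, and 4 of them were highest in neutrophils and 2 in monocytes. Transcripts with high levels in neutrophils were thus present on both sides.

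Between the phagocytes, 12 of 44 raised members were called higher in monocytes than in neutrophils, against 20.1% of the transcripts tested, and 11 lower, against 23.3%. Of the lowered members 5 of 48 were called higher in monocytes and 15 lower. Without TMM scaling these counts were 18 and 6 for the raised (45.4% and 10.2% of all) and 11 and 9 for the lowered members. The balance of the lowered members thus turned with the scaling, as did that of all transcripts. The median log2 ratio of the lowered members lay below that of all with either scaling. It was -0.27 against -0.03 with TMM and 0.13 against 0.37 without. Between spleen and whole blood cells, 8 of 43 raised members were called higher in spleen, against 22.7%, and 17 lower, against 23.9%. For the lowered members these were 8 and 15 of 46. Without TMM scaling they were 11 and 12 for the raised and 9 and 11 for the lowered members, with 35.2% and 14.7% of all transcripts called higher and lower.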

How the data were processed

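RNA of 61 samples was sequenced as paired-end directional libraries. Per the methods, the authors trimmed the reads, quantified transcripts of the Ensembl Rnor_6.0 cDNA with Salmon 1.6.0 and imported them in R 4.1.3. The labels name Rnor_6.0 and mRatBN7.2. The methods name TPM, but the deposited values sum to 3429971 to 14146402 per sample and were used as estimated counts, rounded for edgeR and DESeq2. CPM were computed from the deposited values. None of 31196 identifiers matched a table of 47357 reference genes (identifiers matched: 0), so the tissue labels could not be checked against markers, and the planned gene and marker lists could not be run. No column lacked a sample (0 of 61), and 0 pairs of columns were identical.

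The members and lists were chosen with earlier results of these data known. Named transcripts are the 2 highest and 2 lowest M among members whose MDA livers lie on one side of all 10 others. Tests used edgeR 4.0.16 (quasi-likelihood, TMM, two-sided, Benjamini-Hochberg adjustment over all transcripts averaging at least 1 CPM in the samples fitted) in R 4.3.3, in 3 fits: 15 livers, spleen with whole blood, and 36 sorted samples. The test gives no SE, so each SE printed is the absolute log2 ratio divided by the square root of its F statistic, an approximation. Alternatives were DESeq2 1.42.0, limma 3.58.1 on log2(CPM + 0.1), no TMM, no filter, a replicate block, only the groups compared and leaving out samples. On simulated data for MDA against Ctrl with 13482 transcripts, edgeR found 80.0% of 2-fold and 99.0% of 4-fold changes, with 2.72% false calls. The simulation gave every transcript the same relative spread beyond counting error. Few transcripts were changed, equally many up and down, so the scaling was hardly shifted. These rates need not hold for the real livers. Counting error alone is covered by the 3-count floor.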

Additional observations from a re-analysis of the deposited data

Results flagged for a closer look

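Among 62 groups of 5 or 6 samples (the 4 named transcripts in 11 groups, and the summed levels in 3 liver groups), 8 held a sample far from the others by Dixon's ratio. Chance flags about 1 in 20 groups. In livers, the highest MDA liver for ENSRNOT00000011432 was replicate 5 at 11.5 CPM, and the highest Ctrl liver for ENSRNOT00000026473 was replicate 4 at 1.01 CPM. Ctrl replicate 1 was the highest of its group for the summed raised members, at 2120 CPM, and for the raised member of rank 37 within that sum, at 1479 CPM. The other 4 were single samples above 0 in groups otherwise listed at 0, all under 1 estimated count: ENSRNOT00000054729 in CD4 T cells at 0.0502 CPM, and ENSRNOT00000026473 in B cells at 0.0344 CPM, in CD4 T cells at 0.0377 CPM and in neutrophils at 0.0441 CPM.

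Over all members the same ratio picked out 17 of 75 lowered members (22.7%) in the MDA livers, compared with 5.99% of the kept transcripts, and 0 of 75 raised members. In the Ctrl livers it picked out 8 raised and 4 lowered members (6.11% of the kept transcripts), and in the APAP livers 7 and 4 (6.74%). A transcript above 0 in a single liver of a group is always picked out. Of the lowered members 19 were listed at 0 in at least 3 MDA livers, so the MDA count partly restates these zeros.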

How the results depend on the processing

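The 4 named transcripts kept their direction and their side of the threshold against Ctrl and APAP in all 168 alternative values. They were picked because their MDA livers lay apart from all other livers, so this was largely set by the choice. Of 548 alternative counts, 503 stayed within 1.5 times the main one. These include counts of 0 and MDA calls that the choice of members largely fixed, so nothing is read from that share. The list itself depended on the rule: of 75 raised and 75 lowered members, 49 and 41 were shared with group medians, 38 and 24 with a minimum of 10 CPM, 28 and 11 with no minimum, 24 and 11 without centring, 46 raised members with a pseudocount of 0.1 CPM, and 62 to 70 and 54 to 68 when each liver was left out. For APAP against Ctrl, the raised members called higher numbered 41 with limma, 40 without TMM, 4 with only the groups compared and 6 to 12 with a liver left out (6 without APAP replicate 4 or Ctrl replicate 4). Raised members called lower numbered 0 with limma, 0 without TMM, 2 without the filter, 2 with only the groups compared and 2 to 4 with a liver left out (2 without APAP replicate 2 or 3 or Ctrl replicate 3). Lowered members called higher numbered 14 with limma, 14 without TMM, 2 with only the groups compared and 0 to 1 with a liver left out (0 without APAP replicate 1, 4 or 5 or Ctrl replicate 2, 4 or 5), and those called lower 0 with limma and 0 without TMM. Without the filter 21 raised members were called lower in myeloid cells. Between monocytes and neutrophils limma called 19 raised members higher and 6 lower, and 13 lowered members higher and 9 lower. Without TMM 6 raised members were called lower, and 11 lowered members higher and 9 lower. Shares of all transcripts called are given above only for the main fit and without TMM. Nothing about the members is read from the counts called under the other settings. By medians 2 lowered members were highest in B cells and 5 in NK cells, and 4 to 9 in NK cells when a replicate was left out (4 without replicate 2). The count of lowered members over 4-fold higher in myeloid cells, with alternatives chosen after seeing the data, was 10 to 14. The causes were not tested. The replicate numbers were not taken as pairs, since the labels give them no shared source and not every pair of same-numbered samples correlated at over 0.1 in its deviations from the group means: 3 of 15 liver pairs did (r -0.29 to 0.17), 0 of 5 of spleen and blood, and 24 of 90 of sorted cells (r -0.23 to 0.58). The best match had the same number in 3 of 15, 0 of 5 and 34 of 90 cases, where unrelated numbers would give about 3, 1 and 15, a hint from the data that some sorted samples of one number are related. With the replicate block, 6 raised and 0 lowered members were called higher in APAP than in Ctrl, and no other count moved by over 1.5 times; the myeloid over lymphocyte log2 ratios were 5.45 for ENSRNOT00000007879 and 4.68 for ENSRNOT00000011432. Members near 1 CPM rest on few counts.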
